A study of Homo sapiens with 6 samples.

Results

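The interleukin-1 family genes described here are 10 genes fixed by name: the agonist ligands IL1A, IL1B, IL18, IL33 and IL36G, the receptor antagonists IL1RN and IL36RN, and the receptor chains IL1R1, IL1R2 and IL1RAP. Each was taken from the probe sets annotated with exactly 1 gene symbol, and each had 1 probe set, so that 10 of 32321 probe sets and 10 of 18404 named genes are members. RNA came from PrEC, an immortalized line of normal human prostate epithelial cells, carrying either the hairpin named shNT (the reference group, 3 samples) or a hairpin against PKCλ/ι, written shPKCi (3 samples). PRKCI is the gene of that kinase, a member of the atypical protein kinase C family. Cells of all 6 samples grew in prostate epithelial growth medium and were harvested in the basal state at 48 hours from plating. The series calls the 3 samples of each group biological replicates. How many hairpin sequences were used, and whether each line is a pool or a clone, is not given in the sources used here.

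Interleukin-1 alpha, interleukin-1 beta and the interleukin-36 cytokines are alarm signals that epithelial cells make and release on damage. They bind a ligand-specific receptor chain, which then recruits a shared accessory chain, encoded by IL1RAP, and the adaptor MYD88, which leads to NF-kappaB and AP-1 activity. The family carries its own brakes: IL1RN and IL36RN encode antagonists that occupy the receptors without signalling, and IL1R2 encodes a decoy receptor that binds the ligands without a signalling domain. Interleukin-1 beta and interleukin-18 are made as precursors that caspase-1 cleaves within inflammasomes. Transcripts were measured here, and neither the cleavage nor the release of these proteins was.

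The hairpin's target was lower in the shPKCi arrays. PRKCI had log2 signals of 10.67, 10.48 and 10.85 on the shNT arrays, listed here and below as replicates 1, 2 and 3, against 9.64, 9.66 and 9.56 on the shPKCi arrays, a difference of -1.05 (SE 0.11, adjusted p = 0.000279). Median intensities of the 6 arrays lay between 44.9 and 48.6. The array of shNT replicate 2 stood apart, with correlations of 0.975 to 0.985 with the other arrays, against 0.984 to 0.994 among those 5, and results that rest on it are given with and without it. The basal epithelial keratin genes KRT5, KRT14 and KRT15 lay at percentiles 99.6, 97.1 and 34.0 of mean signal among all genes. The luminal keratin genes KRT8, KRT18 and KRT19 lay at percentiles 95.9, 96.3 and 95.8, and TP63 was not analysed here. The other luminal genes measured, KLK3, KLK2 and ACP3, were dim, at percentiles 32.6, 34.1 and 31.4. PTPRC, which encodes the common leukocyte antigen, lay at percentile 1.17. The number of arrays limits the precision of every value, and in RNA of whole cultures fewer expressing cells and less RNA per cell cannot be told apart.

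IL1A, IL1B and IL36G, which encode agonists, rose in shPKCi, while IL1RN, which encodes the interleukin-1 receptor antagonist, and IL1RAP, which encodes the shared accessory chain, fell. Of the 10 members, 3 rose and 2 fell at an adjusted p under 0.05 (limma, adjusted by Benjamini-Hochberg over 18404 genes), where 9.55% of all genes were higher and 8.95% lower. The signals of the 2 groups did not overlap in these 5 genes and overlapped in the other 5, against 35.7% of all genes with groups that did not overlap. The changes were moderate: of the called members IL1B alone changed at least 2-fold, where 0.734% of all genes were called and at least 2-fold higher and 1.29% called and at least 2-fold lower. Without shNT replicate 2 the members that rose were again 3, and those that fell were 3, the addition being IL18. The calls of the 5 genes held in each of the 6 fits that left out 1 array.

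**Figure D1:**
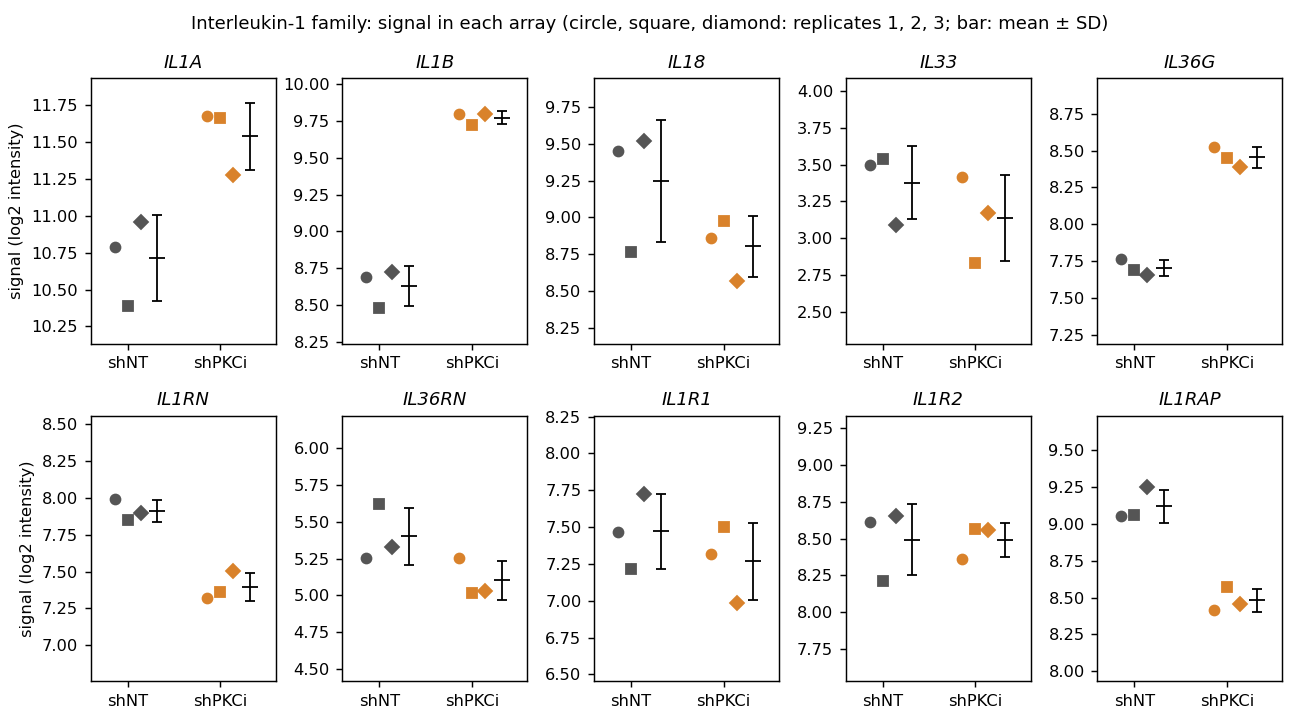
Signal of each of the 10 members in each array on the log2 scale, with a panel for each gene spanning 1.8 log2 units; circles, squares and diamonds are replicates 1, 2 and 3, and the bar gives the group mean ± SD (n = 3). The shPKCi arrays lie above all shNT arrays for IL1A, IL1B and IL36G and below them for IL1RN and IL1RAP, and the groups overlap in the other 5 panels.

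IL1B, the gene of the secreted cytokine interleukin-1 beta, showed the largest change among the members. The shNT arrays read 8.69, 8.48 and 8.72 in log2 signal, and the shPKCi arrays 9.80, 9.72 and 9.80. The lowest shPKCi array lay well above the highest shNT array. The group means were 8.63 ± 0.13 and 9.77 ± 0.04 (SD, n = 3), so that it rose 2.21-fold, by 1.14 in log2 (SE 0.10, adjusted p = 8.68e-05). On the linear scale this corresponds to intensities of 414, 356 and 422 against 892, 845 and 890.

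IL1A encodes interleukin-1 alpha, which is active as a precursor and is stored in epithelial cells. Log2 signals were 10.79, 10.39 and 10.96 in the shNT arrays and 11.68, 11.66 and 11.28 in the shPKCi arrays. Both groups spread widely, with shNT replicate 2 the lowest of the 6 and shPKCi replicate 3 the lowest of its group, yet they did not overlap. IL1A rose by 0.83 (SE 0.16, adjusted p = 0.00676), or 1.77-fold. Without shNT replicate 2 the rise was 0.67 (SE 0.14, adjusted p = 0.00989).

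IL36G encodes interleukin-36 gamma, an agonist made mainly by stratified epithelia. Its log2 signals were 7.76, 7.69 and 7.66 in the shNT arrays and 8.52, 8.45 and 8.39 in the shPKCi arrays, with little spread within either group. The rise was 0.75 (SE 0.09, adjusted p = 0.000589), or 1.68-fold.

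The promoters of these 3 genes that rose are shown to let their sequences be compared. Each line gives the 250 bases before the most upstream listed start, from RefSeq on GRCh38.p14, 5′ to 3′ on the gene's strand. IL1A is read from the minus strand of chr2:112784494-112784743, IL1B from the minus strand of chr2:112836780-112837029, and IL36G from the plus strand of chr2:112977756-112978005. Capitals mark matches to an AP-1 motif (TGANTCA), a C/EBP motif (TTGCNNAA) or a core of the NF-kappaB motif (GGNNTTTCC), searched on both strands.
IL1A: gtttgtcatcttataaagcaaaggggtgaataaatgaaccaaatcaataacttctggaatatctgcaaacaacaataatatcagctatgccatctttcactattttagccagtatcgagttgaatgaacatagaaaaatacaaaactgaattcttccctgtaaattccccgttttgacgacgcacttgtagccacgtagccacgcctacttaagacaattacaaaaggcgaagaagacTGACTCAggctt
IL1B: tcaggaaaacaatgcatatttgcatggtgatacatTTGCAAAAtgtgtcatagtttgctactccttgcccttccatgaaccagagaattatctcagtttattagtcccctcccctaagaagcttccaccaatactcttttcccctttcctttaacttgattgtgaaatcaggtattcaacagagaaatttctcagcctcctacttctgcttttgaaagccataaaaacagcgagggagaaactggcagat
IL36G: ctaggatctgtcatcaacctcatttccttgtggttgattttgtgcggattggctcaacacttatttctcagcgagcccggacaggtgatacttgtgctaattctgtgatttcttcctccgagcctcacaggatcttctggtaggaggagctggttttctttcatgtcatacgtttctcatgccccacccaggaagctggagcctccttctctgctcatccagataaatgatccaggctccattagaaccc

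The 3 promoters do not share a match to these motifs. The IL1A window holds an AP-1 match that begins 12 bases before the start (the window of its other listed start holds 2), the IL1B window a C/EBP match that begins 215 bases before it, and the IL36G window none. Among 35116 promoter windows of the same length, 6.57% hold the AP-1 motif, 9.05% the C/EBP motif and 5.48% the NF-kappaB core. Of the 10 members, 9 were in the promoter table, and IL1RN and IL1R2 were those with an NF-kappaB core in a listed window. A match is a description of letters, and binding was not measured.

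Among the antagonists, IL1RN fell and IL36RN did not pass the test. IL1RN had log2 signals of 7.99, 7.85 and 7.90 in the shNT arrays and 7.32, 7.36 and 7.51 in the shPKCi arrays. Its lowest shNT value lay above its highest shPKCi value. It was 1.43-fold lower, a log2 difference of -0.52 (SE 0.10, adjusted p = 0.00565). The gene makes secreted and intracellular forms from different starts, and its single probe set gives 1 value for the gene. RefSeq lists 3 starts for it, and the NF-kappaB core noted above begins 96 bases before the most downstream of them.

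IL36RN encodes the antagonist of the interleukin-36 receptor. The log2 signals of this gene were 5.25, 5.62 and 5.33 in the shNT arrays and 5.26, 5.02 and 5.03 in the shPKCi arrays, so that the groups touched at replicate 1 of each. The difference was -0.30 (95% interval -0.58 to -0.02, adjusted p = 0.136), and without shNT replicate 2, its highest array, -0.19 (adjusted p = 0.241). Its signal lay at percentile 33.4 of all genes, where array signal can understate a fold.

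The rises of IL1A and IL1B and the fall of IL1RN can be set against each other within each array, as the difference of their log2 signals. IL36G is set beside IL36RN in the same way, although IL36RN did not pass the test. Relative to its mean in shNT, the difference IL1B minus IL1RN lay between -0.09 and 0.11 in the shNT arrays and between 1.57 and 1.76 in the shPKCi arrays, a mean of 1.66 ± 0.09 (SD, n = 3), or 3.16-fold. The difference IL1A minus IL1RN lay between -0.26 and 0.26 in shNT and between 0.97 and 1.55 in shPKCi. For IL36G minus IL36RN the ranges were -0.23 to 0.21 and 0.96 to 1.13. In each of these 3 pairs the 2 groups lay apart. For the pairs with IL1RN this follows from the groups not overlapping in either gene, in opposite directions. For the pair with IL36RN it follows from the gap between the groups in IL36G, which exceeds the overlap in IL36RN. The separation of the pairs is thus no further evidence. These differences are descriptions of unequal change and were not tested, because the members had been chosen with results known.

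**Figure D2:**
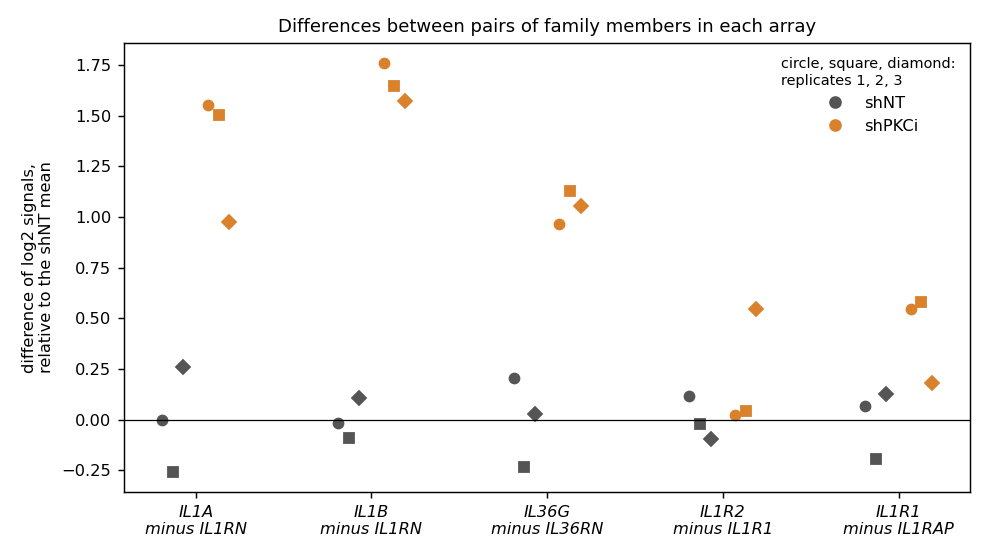
Difference of the log2 signals of 2 family members in each array, relative to the mean of that difference in shNT, for 5 pairs; grey is shNT, orange is shPKCi, and circles, squares and diamonds are replicates 1, 2 and 3. The 3 pairs of an agonist and an antagonist lie at 0.96 or above in every shPKCi array, and the pair of IL1R2 and IL1R1 overlaps between the groups.

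IL18 and IL33 showed no rise. IL18 encodes interleukin-18, which epithelial cells make steadily as a precursor. Its log2 signals were 9.45, 8.77 and 9.52 in the shNT arrays and 8.86, 8.98 and 8.57 in the shPKCi arrays, and shNT replicate 2 lay among the shPKCi values. With all arrays the difference was -0.44 (SE 0.19, adjusted p = 0.162). Without shNT replicate 2 it was -0.68 (SE 0.12, adjusted p = 0.00614), so that its call rests on that array.

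IL33 encodes interleukin-33, a nuclear cytokine of barrier tissues. Its log2 signals ran from 3.09 to 3.54 in shNT and from 2.83 to 3.41 in shPKCi, at percentile 4.90 of all genes, and no detection call was used that would separate such a level from background. The difference was -0.24 (95% interval -0.61 to 0.14, adjusted p = 0.407), and it ran from -0.38 without shNT replicate 3 to -0.08 without shPKCi replicate 2; without shNT replicate 2 it was -0.16.

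Of the receptor chains, IL1RAP fell and the 2 ligand-binding chains did not pass the test. IL1RAP had log2 signals of 9.05, 9.06 and 9.25 in the shNT arrays and 8.42, 8.57 and 8.45 in the shPKCi arrays. Its groups lay well apart. The fall was -0.64 (SE 0.10, adjusted p = 0.00215), or 1.56-fold. Membrane and soluble forms of the accessory chain come from this gene, and its probe set gives 1 value for both.

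IL1R1 encodes the signalling receptor of interleukin-1. In log2 signal it read 7.47, 7.22 and 7.73 in shNT and 7.32, 7.50 and 6.98 in shPKCi, and the groups overlapped broadly. The difference was -0.20 (95% interval -0.57 to 0.16, adjusted p = 0.469), and it ran from -0.33 without shNT replicate 2 to -0.06 without shPKCi replicate 3. IL1R2, the decoy receptor gene, had log2 signals of 8.61, 8.21 and 8.65 in shNT and 8.36, 8.56 and 8.56 in shPKCi. Its difference was 0.00014 (95% interval -0.30 to 0.30, adjusted p = 0.9998), an interval that leaves room for a change of up to 0.30 either way. The difference IL1R1 minus IL1RAP, relative to shNT, lay between -0.19 and 0.13 in shNT and between 0.18 and 0.58 in shPKCi.

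Members lay on both sides in the array that stood apart. In shNT replicate 2, 6 of the 10 members were below both other shNT arrays and 2 above them, while over all genes 36.7% were below and 44.9% above. Relative to the mean of the other shNT arrays, in log2, IL18 lay at -0.72, IL1A at -0.48, IL1R2 at -0.42, IL1R1 at -0.38 and IL1B at -0.23, while IL36RN lay at 0.33 and IL33 at 0.24. IL36G, IL1RAP and IL1RN were within 0.10 of that mean, at -0.02, -0.09 and -0.10. Without it, IL1B rose by 1.07 (adjusted p = 0.000113), and the difference of IL1R2 was -0.14 (adjusted p = 0.37).

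The members on chromosome 2 sit in 2 blocks of family genes with no other protein-coding gene between them, in the order of the RefSeq table. The ligand block runs IL1A, IL1B, IL37, IL36G, IL36A, IL36B, IL36RN, IL1F10 and IL1RN. At one end IL1A and IL1B rose, at the other end IL1RN fell, and IL36G rose between neighbours that did not pass: IL37 at 0.18 (adjusted p = 0.381) and IL36A at 0.09 (adjusted p = 0.659). The receptor block runs IL1R2, IL1R1, IL1RL2, IL1RL1, IL18R1 and IL18RAP, and the adjacent genes IL1RL1 and IL18R1 rose. Both blocks thus held genes that rose beside genes that did not pass.

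**Figure D3:**
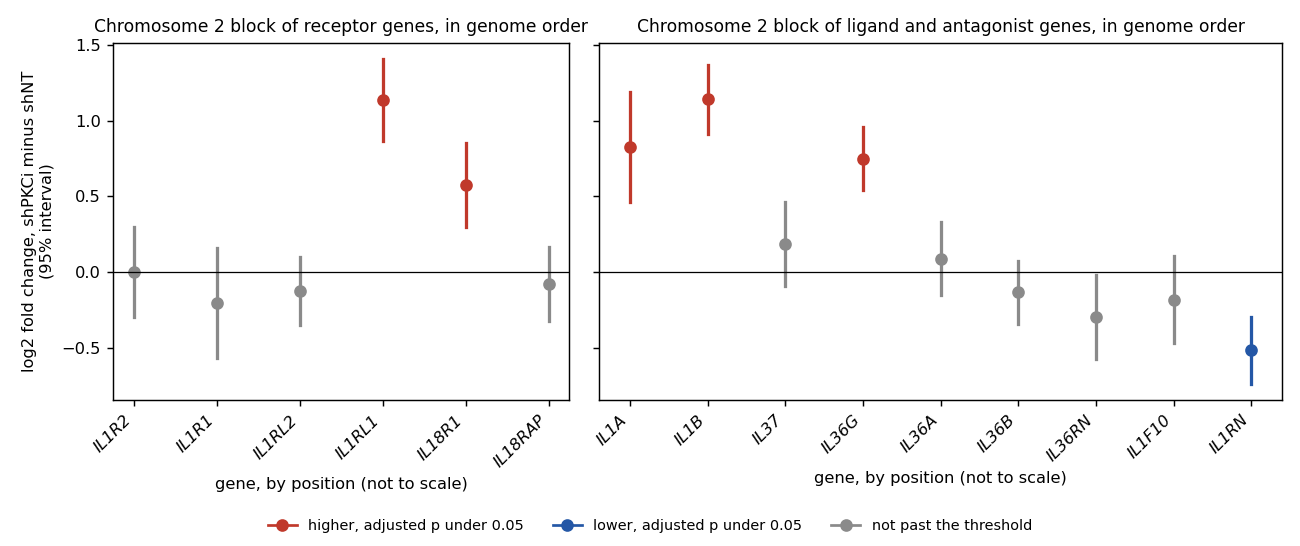
Log2 fold change, shPKCi minus shNT, with its 95% interval, of the 6 receptor genes and the 9 ligand and antagonist genes of the family that lie side by side on chromosome 2, in genome order and not to scale; red is higher and blue lower at an adjusted p under 0.05, and grey did not pass. IL1RL1 and IL18R1 rose in the receptor block; in the other block IL1A, IL1B and IL36G rose and IL1RN, at its end, fell.

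Beyond the 10 members, 12 further family genes were measured, of which 2 rose, none fell (1 at an unadjusted limma p under 0.05, and 1 past the threshold without shNT replicate 3) and 10 did not pass, against 18.5% of all genes called in either direction. Their median difference was -0.03, and that of all genes was -0.02. IL1RL1, which encodes the interleukin-33 receptor and its soluble form, had log2 signals of 5.06, 4.79 and 4.90 in shNT and 5.96, 5.94 and 6.26 in shPKCi. It rose by 1.14 (SE 0.12, adjusted p = 0.000261), or 2.20-fold, a size like that of IL1B. IL18R1, which encodes a chain of the interleukin-18 receptor, rose from 4.25 ± 0.15 to 4.83 ± 0.18 (SD, n = 3; adjusted p = 0.0106). Both were dim, at percentiles 37.6 and 22.0 of all genes. The genes of the interleukin-36 receptor IL1RL2, the inhibitory receptor SIGIRR and the interleukin-18 binding protein IL18BP had differences of -0.13, -0.06 and 0.02 (adjusted p = 0.472, 0.769 and 0.947).

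Among genes of signalling below the receptors, the adaptor gene MYD88 and the kinase gene CHUK rose and the brake gene IRAK3 fell. Of 20 measured genes, 2 rose, 1 fell and 17 did not pass, near the 18.5% called among all genes, with a median of 0.02. MYD88, the adaptor gene, had log2 signals of 7.53, 7.50 and 7.36 in shNT and 8.004, 8.07 and 7.88 in shPKCi, a rise of 0.52 (SE 0.10, adjusted p = 0.00582). CHUK, which encodes IKK-alpha, rose by 0.75 (SE 0.17, adjusted p = 0.0135), though not without shPKCi replicate 2 (adjusted p = 0.0579). IRAK3, which encodes an inactive kinase that restrains the pathway, fell: its difference was -0.40 (SE 0.10, adjusted p = 0.0197). That fall did not pass without shNT replicate 3, shPKCi replicate 1 or shPKCi replicate 3, with adjusted p up to 0.0791. The kinase genes IRAK1 and IRAK2 and the ubiquitin ligase gene TRAF6 had differences of 0.26, 0.19 and 0.06 (adjusted p = 0.102, 0.294 and 0.777). IRAK4 and TAB1 were not analysed here.

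Among genes for processing and release of the cytokines, none rose in the limma fit (1 at an unadjusted p under 0.05). Of 27 measured genes, 4 fell and 23 did not pass, with a median of -0.07, where 8.95% of all genes fell and 9.55% rose. A count of 4 is not far from that share. ADAM17, which encodes the protease that sheds IL1R2 and other surface proteins, had log2 signals of 9.62, 9.58 and 9.73 in shNT and 8.86, 8.95 and 8.86 in shPKCi, a difference of -0.75 (SE 0.09, adjusted p = 0.00062). CARD16, a close relative of the caspase-1 gene whose transcripts can bind the same probes, was at -0.79 (SE 0.10, adjusted p = 0.000739). PYCARD, the gene of the inflammasome adaptor ASC, was at -0.40 (adjusted p = 0.0194) and the gasdermin gene GSDME at -0.44 (adjusted p = 0.0101). PYCARD did not pass without shNT replicate 1, shPKCi replicate 1 or shPKCi replicate 3 (adjusted p up to 0.0883), and GSDME not without shPKCi replicate 2 (0.0611).

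CASP1, the gene of the caspase that matures interleukin-1 beta and interleukin-18, gave a result that turned on the array that stood apart. Its log2 signals were 7.16, 6.60 and 7.38 in shNT and 6.66, 6.69 and 6.73 in shPKCi, with shNT replicate 2 below the shPKCi arrays. The difference was -0.36 with all arrays (SE 0.17, adjusted p = 0.209) and passed without that array (adjusted p = 0.00367). Without it 6 of the 27 genes fell, CASP4 being the other addition, and the list's median was 0.02. The pore gene GSDMD had a difference of -0.06 (adjusted p = 0.737).

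**Figure D4:**
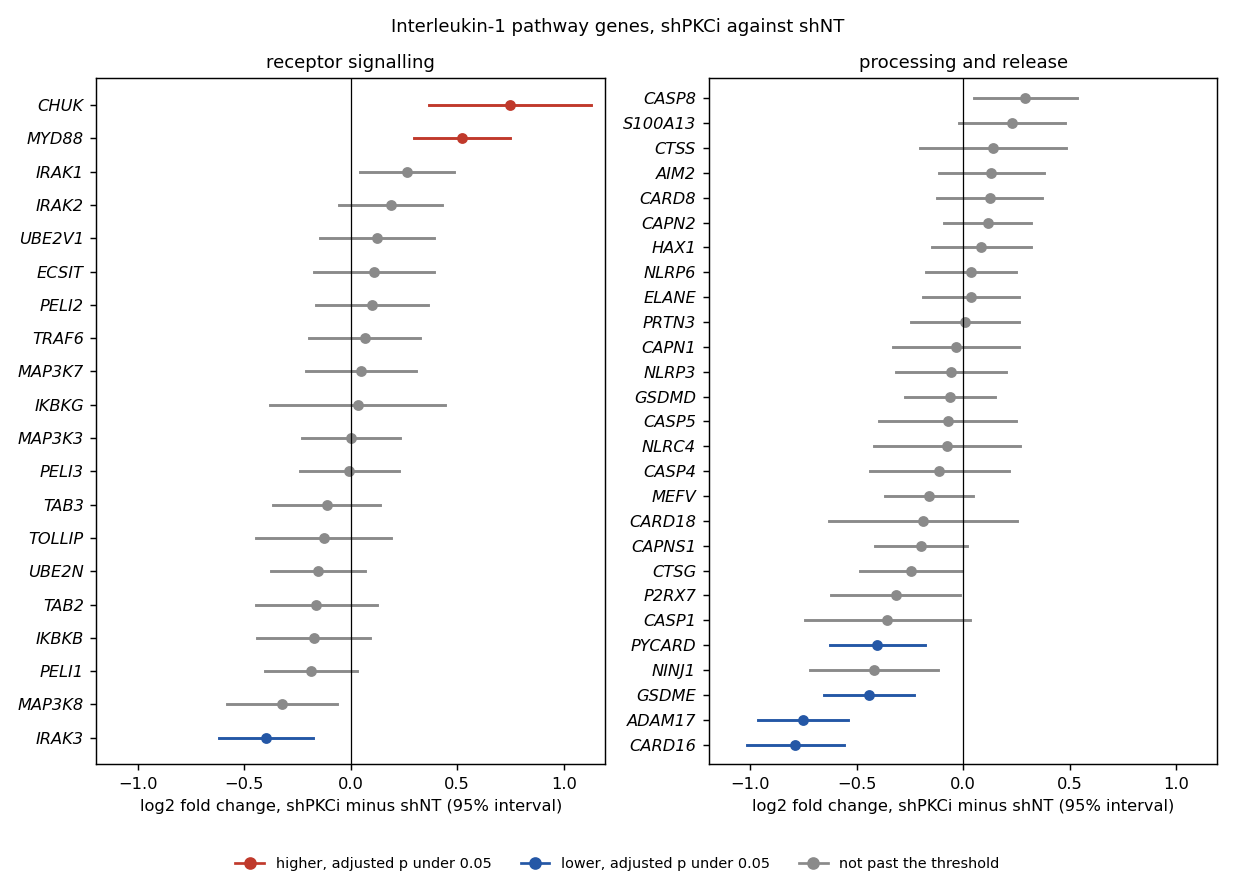
Log2 fold change, shPKCi minus shNT, with its 95% interval, for 20 genes of receptor signalling (left) and 27 genes of processing and release (right), sorted by size; red is higher and blue lower at an adjusted p under 0.05, and grey did not pass. CHUK and MYD88 rose and IRAK3 fell on the left, and PYCARD, GSDME, ADAM17 and CARD16 fell on the right.

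Genes known to respond to interleukin-1 in epithelium went both ways, with chemokines and IL6 among the rises and the complement gene CFB and serpin genes among the falls. Of 43 measured genes, 17 rose, 6 fell and 20 did not pass, with a median of 0.21 against -0.02 for all genes, where 9.55% of all genes rose and 8.95% fell. Without shNT replicate 3, 12 rose and 5 fell, and without any 1 of the shPKCi arrays 14 and 5. Without shNT replicate 1 the counts were 16 and 5, and without shNT replicate 2 they were 18 and 7. These genes also answer other stimuli, and the list was written with part of these results known, so its counts are a description.

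Several neutrophil chemokine genes rose strongly, though not all. CXCL8 had log2 signals of 9.47, 9.31 and 9.43 in shNT and 10.63, 10.64 and 10.63 in shPKCi, a rise of 1.23 (SE 0.09, adjusted p = 3.33e-05). CXCL5 rose by 2.71 (adjusted p = 6.83e-06), CXCL6 by 1.81 (adjusted p = 2.53e-05) and CXCL1 by 1.003 (adjusted p = 0.000139). CXCL3, of the same kind and chosen after its value was seen, had 0.22 with overlapping groups (adjusted p = 0.438). Its call rests on shNT replicate 2, the highest of its shNT arrays, and without that array CXCL3 passed as higher (adjusted p = 0.028). Close relatives among these chemokines can bind the same probes. The collagenase gene MMP1 rose by 2.47 (adjusted p = 6.83e-06), the cytokine gene IL6 by 1.48 (adjusted p = 0.00011), the stress gene IER3 by 1.01 (adjusted p = 9.37e-05) and the iron-binding lipocalin gene LCN2 by 0.72 (adjusted p = 0.00176). In each of these 8 genes that rose, CXCL3 not being among them, the call held in all 6 fits without 1 array.

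NFKBIZ, which encodes a co-activator needed for part of the interleukin-36 response, rose by 0.39 (SE 0.10, adjusted p = 0.0195). It passed without shNT replicate 2 and without shPKCi replicate 3, and not without any other single array (adjusted p up to 0.0978). Chosen after their values were seen, TNIP3, NFKB2 and ZC3H12A, further NF-kappaB-related genes of the list, rose by 0.57, 0.50 and 0.39 (adjusted p = 0.0253, 0.0180 and 0.0222). Each of them lost its call in at least 2 of the 6 fits without 1 array. Others of this kind, TNIP1, BCL3 and RELB, did not pass, with differences of 0.03, 0.08 and -0.003 (adjusted p = 0.871, 0.754 and 0.992). The NF-kappaB inhibitor gene NFKBIA had a difference of -0.18 (95% interval -0.38 to 0.02, adjusted p = 0.225) and TNFAIP3, the gene of the ubiquitin-editing enzyme A20, of 0.19 (95% interval -0.01 to 0.39, adjusted p = 0.194). CCL20, a chemokine gene, had 0.37 (adjusted p = 0.0506; 0.0411 without shNT replicate 1), and the prostaglandin synthase gene PTGS2 had -0.20 (adjusted p = 0.189).

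Other genes of the list fell strongly. The complement factor gene CFB was at -2.61 (SE 0.11, adjusted p = 1.95e-06), and another probe set of it at -2.01, while the remaining one was at 0.12 with an SE of 0.77. C3, a further complement gene of the list, did not pass, at -0.25 (adjusted p = 0.122). SERPINB3 and SERPINB4, near-identical serpin genes, were at -2.91 and -2.03 (adjusted p = 5.28e-06 and 0.000409). SOD2, the mitochondrial superoxide dismutase gene, was at -0.66 and the calprotectin gene S100A9 at -0.59 (adjusted p = 0.00133 and 0.00211).

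**Figure D5:**
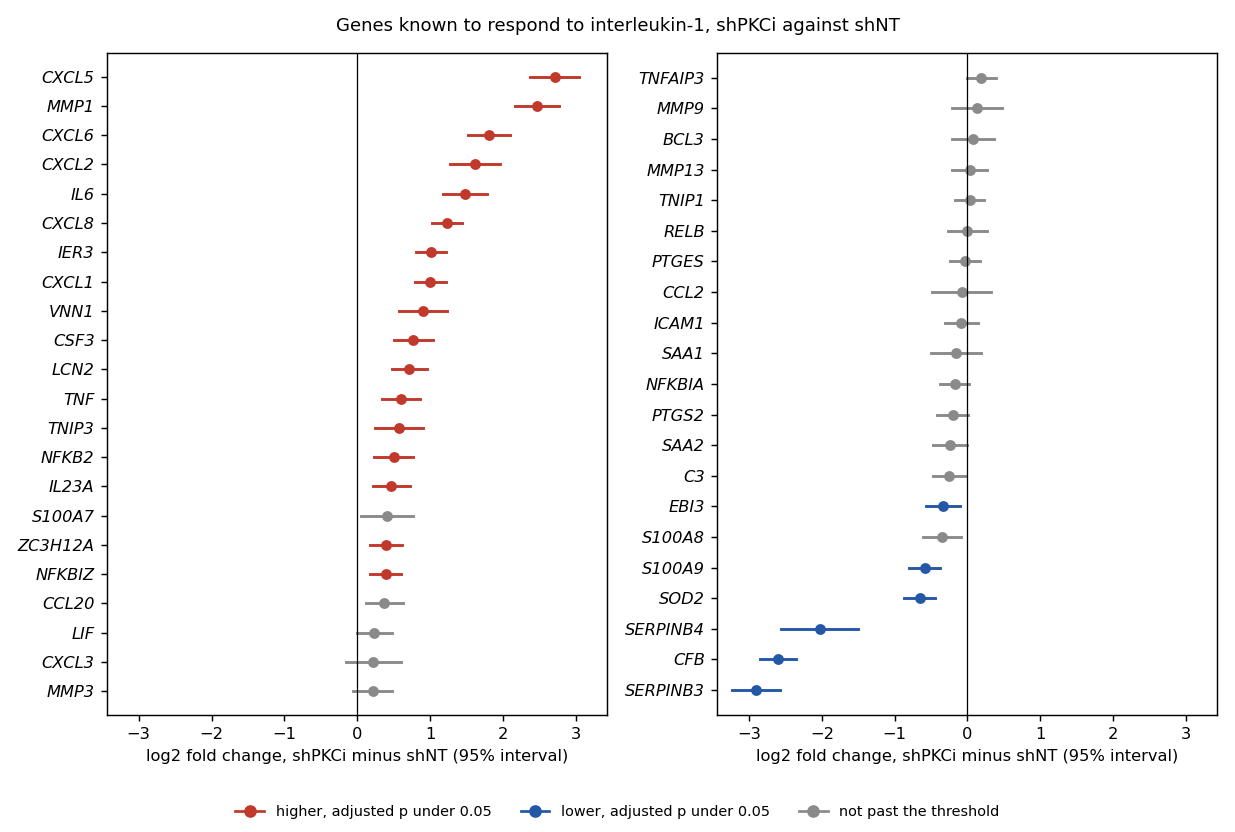
Log2 fold change, shPKCi minus shNT, with its 95% interval, for 43 genes known to respond to interleukin-1, sorted by size over 2 columns; red is higher and blue lower at an adjusted p under 0.05, and grey did not pass. Rises run up to 2.71 for CXCL5, and the falls of SERPINB3, CFB and SERPINB4 go past -2.

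The NF-kappaB core lies close to the start of several chemokine genes that rose, and 30 bases around it are shown for 5 of them and for IL6, with CXCL2 added after its value was seen (a rise of 1.61, adjusted p = 0.000122). The sequences are from RefSeq on GRCh38.p14, 5′ to 3′ on each gene's strand, with the match in capitals. They come from chr4:73869305-73869334 (plus strand, CXCL1), chr4:74099253-74099282 (minus, CXCL2), chr4:73998748-73998777 (minus, CXCL5), chr4:73836579-73836608 (plus, CXCL6), chr4:73740468-73740497 (plus, CXCL8) and chr7:22727118-22727147 (plus, IL6).
CXCL1: tggaactccgGGAATTTCCctggcccgggg
CXCL2: tggagctccgGGAATTTCCctggcccggga
CXCL5: atgagttcagGGAATTTCCccagcatccca
CXCL6: ctgagttcagGGAATTTCCccagcatccca
CXCL8: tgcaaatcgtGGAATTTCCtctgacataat
IL6: atcaaatgtgGGATTTTCCcatgagtctca

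The same 9 letters stand in all 5 chemokine lines, and the matches shown begin 72 to 91 bases before the start. Counting a gene once over its listed starts, 6.69% of 27305 genes hold the core in such a window. Of the response genes in the table, 9 of 13 that rose held it, 1 of 6 that fell and 7 of 11 that did not pass. The core was thus about as common among response genes that did not pass as among those that rose, and many genes of this list are known as NF-kappaB targets.

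Markers of leukocytes, which also make interleukin-1, were mostly dim. Of 12 monocyte and macrophage genes, 1 rose and none fell (1 at an unadjusted limma p under 0.05), and 3 were above the median signal of all genes. Over all genes, 9.55% rose and 8.95% fell, so that a count of 1 is near that share. Their mean log2 signal ran from 4.63 to 4.70 over the shNT arrays and from 4.67 to 4.79 over the shPKCi arrays. The gene that rose was LAPTM5, chosen after its value was seen, at 0.46 (adjusted p = 0.0341), and it passed in 1 of the 6 fits without 1 array. CD14 and CSF1R lay at percentiles 33.6 and 34.5 of all genes, with differences of 0.19 and 0.01 (adjusted p = 0.298 and 0.967). CD68, the brightest of the list, lay at percentile 78.9, with a difference of -0.22 (adjusted p = 0.137). None of 6 neutrophil genes was past the threshold in the limma fit (1 at an unadjusted p under 0.05), none was above the median signal, 1 fell without shNT replicate 1, and their mean ran from 4.205 to 4.24 in shNT and from 4.18 to 4.27 in shPKCi.

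Some markers of the epithelium itself also differed between the groups, and their part in the changes of the members was not tested. Over all genes, 8.95% fell and 9.55% rose, or 18.5% in either direction, and each count below is to be set against these shares. Of 8 basal epithelial genes, 5 fell and none rose (1 at an unadjusted limma p under 0.05), with mean log2 signals of 9.59 to 9.62 in shNT and 9.17 to 9.24 in shPKCi. The count of 5 went to 2 without shPKCi replicate 2, to 3 without shNT replicate 1, shPKCi replicate 1 or shPKCi replicate 3, and to 4 without shNT replicate 3. Without shNT replicate 2 it was 5, and LAMB3 rose (adjusted p = 0.0394). Of 11 squamous differentiation genes, 4 fell and 1 rose, with means of 7.85 to 8.05 and 7.57 to 7.69. The fibroblast list had 2 falls and no rise among 9 genes in the limma fit (0 rises at an unadjusted p under 0.05), with means of 5.47 to 5.63 and 5.21 to 5.28. The genes that fell were FAP and COL1A1, by -1.05 and -0.49 (adjusted p = 0.000501 and 0.0244). They were well above LUM and DCN in signal, at percentiles 85.0 and 62.1 against 1.81 and 3.42. Of the falls in the fibroblast list, 1 was left without shPKCi replicate 2 or without shPKCi replicate 3. The endothelial list gave 1 fall of 6 genes and the lymphocyte list 1 rise of 6, counts near the share of all genes called in either direction. Each of these calls was lost in 4 of the 6 fits without 1 array. The luminal list gave 2 falls of 6 genes, the keratin gene KRT19 at -0.52 and ACP3 at -1.02 (adjusted p = 0.0131 and 0.00127). KRT19 did not pass without shPKCi replicate 1 or shPKCi replicate 2 (adjusted p up to 0.0646). Without shNT replicate 2 the list gave the same 2 falls (adjusted p = 0.0195 and 0.00323) and 2 rises, its median going from -0.25 to -0.06. Those rises were of the keratin genes KRT8 and KRT18 (adjusted p = 0.00698 and 0.0361).

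By likeness over the 6 arrays, the genes above the median signal closest to IL1B were MMP1, FEZ1, SLC25A44 and ARF4, with Pearson's r of 0.999 or above. Those closest to IL1A were HSPA4, YBX1, ORMDL1 and ARHGAP17, with r between 0.996 and 0.999. Of 9194 such genes, 1509 correlated with IL1B at r over 0.9 and 1242 with IL1A. The 6 points fall into the 2 groups, so that any gene that differs between the lines correlates highly, and the values are a description without a test.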

How the data were processed

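The authors deposited probe set intensities, RMA values per the submitters' processing notes, for 6 arrays labelled with biotin. The RMA version, the software and the genome build are not given in the sources used here. The values run from 3.29 to 18461, were read as linear on that ground, and were taken to log2. No detection calls were used, and array signal compresses folds of very dim or bright genes. Gene names came from the platform annotation: 19158 probe sets had 1 symbol, 1388 several, and 11775 were not listed. The brightest probe set was kept for the 637 genes with several, which gave 18404 genes, with no filter on signal.

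Groups came from the sample titles. Genes were compared with limma 3.58.1 (lmFit, eBayes) in R 4.3.3 with no covariate, and p-values were adjusted by Benjamini-Hochberg at 0.05. Intervals are 95% intervals from the same fit. The fit was tested on simulated data. The rule for named genes took all members, 23 pathway genes whatever their values, the 5 smallest adjusted p in each direction of the other pathway lists, and the 4 genes most like IL1A and IL1B. The members and lists were chosen with earlier results of these data known. Alternatives tried were leaving out each array, a block for the replicate number, other scalings, filters, probe set rules, variance models and thresholds. P-values measure the spread between these 3 samples a group. Promoter sequences and gene order came from RefSeq tables on GRCh38.p14.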

Additional observations from a re-analysis of the deposited data

How the results depend on the processing

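The 10 members were refitted under 17 alternatives, 6 of which left out 1 array. IL1B kept its rise and its call in all that gave it a value, and IL1A, IL36G, IL1RN and IL1RAP did so except in the test against a fold of 1.5 (treat), where 1 member was higher and 0 lower. IL18 passed in 2 alternatives, at -0.68 once shNT replicate 2 was left out and at -0.56 with array weights (adjusted p = 0.00614 and 0.00974). The log2 fold change of IL1R2 turned from 0.00014 to -0.071 after cyclic loess and to -0.088 with array weights. Without 1 array it ranged from -0.14 to 0.080, below 0 without shNT replicate 2, shPKCi replicate 2 or shPKCi replicate 3. The sample titles number the replicates and do not say whether the numbers pair the samples. The deviations of same-numbered samples correlated at 0.12, -0.06 and -0.18, and those of differently numbered samples at -0.17 to 0.21. With 3 arrays a group these values cannot settle whether the samples are paired. With the replicate block, 3 members were higher and 2 lower, 2978 genes passed in all, and the lists gave 3 signalling, 5 processing, 22 response and 2 further family genes. The total of 3406 genes past the threshold ranged from 2045 to 3894 without 1 array, being 2129 without shPKCi replicate 1 and 2045 without shPKCi replicate 2. It was 1772 at an adjusted p under 0.01 and 268 under treat. Centring each array on its median moved the split of calls from 1758 higher and 1648 lower to 2170 and 1321. Signalling genes past the threshold were 5 above the median signal, 5 with array weights, 1 at 0.01 and 0 under treat, against 3. Processing genes were 2 at 0.01 and 0 under treat, against 4. Response genes were 10 under treat, against 23. Further family genes were 1 above the lower quartile of signal, 0 above the median, where the dim genes are not tested, 1 at 0.01 and 1 under treat, against 2. Stricter tests call fewer genes by construction; other causes were not tested.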
